A study of Mus musculus with 5 samples.

Results

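The genes that code for the Pcgf6 complex itself were examined for Pcgf6 signal at their own promoters in mouse ESCs. They were taken from a list of 10 genes out of the 22359 protein-coding genes with an annotated start: Pcgf6, E2f6, Mga, L3mbtl2, Max, Tfdp1, Rnf2, Ring1, Rybp and Yaf2. They were chosen by name, as subunit genes, with the ChIP and input depth of these same libraries at these promoters known, so the promoter values below describe the genes and test nothing. In ChIP-seq, cross-linked chromatin is sheared, the DNA held by a protein is pulled down with an antibody, and the DNA is sequenced. Sequencing the same kind of chromatin without pull-down gives the background, called input. All 5 libraries came from CCE, an established mouse ESC line, kept below passage 15 in serum medium with LIF at 1000 U/ml and cross-linked with disuccinimidyl glutarate and paraformaldehyde. No gene was altered and no agent was added, and the libraries differ in the pull-down alone: 2 replicates with a Santa Cruz antibody to Pcgf6, 2 replicates with an Abcam antibody to Pcgf6, and 1 input library. There was no library from cells without Pcgf6 and none with a control antibody, so all enrichment here is relative to input.

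The deposited signal is coverage, the number of reads over each position after the authors had lengthened every read to 300 bp. Fragments recovered from it numbered 22809737 in the input, 2289721 and 2299563 for Santa Cruz, and 2761368 and 2850077 for Abcam. The replicates of an antibody were largely the same fragments, since 87.83% of Santa Cruz replicate 1 and 88.04% of Abcam replicate 1 were found again in replicate 2, and their counts differed by less than sampling noise (chi-square per degree of freedom of 0.121 and 0.132, against 1.02 between the antibodies). They were therefore counted as 1 sample per antibody, with 2564257 and 3162033 distinct fragments, and no SD over replicates can be given. A median promoter, taken as 2 kb on each side of the transcription start site (TSS), held 6 Santa Cruz, 9 Abcam and 69 input fragments, and at this depth only strong enrichment is detectable at a single promoter.

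Polycomb repressive complex 1 (PRC1) is a family of chromatin complexes built on the E3 ubiquitin ligases Ring1 and Rnf2, which attach ubiquitin to histone H2A, and on 1 of several Pcgf proteins that set the subtype. In the subtype with Pcgf6, DNA contact comes from a pair of heterodimers, E2f6 with Tfdp1, which binds E2F sites, and Mga with Max, which binds E-boxes and through its T-box domain T-box sites. L3mbtl2 is a methyl-lysine binding protein that is specific to this subtype, and Rybp and Yaf2 are related proteins that bind Ring1 or Rnf2. In ESCs the complex is best known for keeping germ cell genes silent. Whether it also binds the genes of its own subunits is the question that the promoter signal addresses.

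Pcgf6 signal reached 2-fold over input at 3 of the 10 promoters, those of E2f6, Mga and Tfdp1, and it did so with both antibodies. Of all promoters, 7.05% reached 2-fold with Santa Cruz, 6.73% with Abcam and 2.81% with both. E2f6, Mga and Tfdp1 each code for a DNA-binding subunit, as does Max. The promoter of Pcgf6 itself had a ratio below 1 with both antibodies, and those of Max, L3mbtl2, the ligases, Rybp and Yaf2 did not reach 2-fold with either. The sequences that go with this contrast are printed first, from the mouse build NCBIM37 (mm9) in the direction of the gene, with exact matches to the E2F core (TCCCGC, either strand) or the E-box (CACGTG) in capitals. A T-box core (GGTGTGA, either strand) was searched as well and has no match in them. For Mga and Tfdp1, the 300 bases surround the point of highest ChIP depth, and for E2f6 they are the 300 bases before the TSS, with a short stretch after it around the match closest to that point. The first sequence, the 300 bases before the TSS of Pcgf6, is shown because it is the promoter that autoregulation in the narrow sense would involve.
Pcgf6, chr19:47125381-47125680, minus strand, upstream of the TSS: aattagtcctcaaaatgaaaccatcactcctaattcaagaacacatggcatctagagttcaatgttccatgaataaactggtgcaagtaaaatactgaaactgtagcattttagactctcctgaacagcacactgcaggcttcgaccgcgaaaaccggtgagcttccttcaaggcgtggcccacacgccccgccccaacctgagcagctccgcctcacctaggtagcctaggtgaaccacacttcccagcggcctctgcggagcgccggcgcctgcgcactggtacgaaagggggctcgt
E2f6, chr12:16817471-16817770, plus strand, upstream of the TSS: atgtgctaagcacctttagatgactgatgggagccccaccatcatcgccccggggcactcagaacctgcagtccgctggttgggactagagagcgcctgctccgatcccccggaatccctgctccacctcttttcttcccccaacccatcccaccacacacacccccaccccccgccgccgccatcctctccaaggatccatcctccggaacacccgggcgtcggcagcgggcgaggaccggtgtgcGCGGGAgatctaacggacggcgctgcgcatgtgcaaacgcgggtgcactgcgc
E2f6, chr12:16817992-16818021, plus strand, end of the untranslated part of exon 1 and start of the coding sequence: ggcgcgaggggcGCGGGAcagcatgagtca
Mga, chr2:119723209-119723508, plus strand, first intron: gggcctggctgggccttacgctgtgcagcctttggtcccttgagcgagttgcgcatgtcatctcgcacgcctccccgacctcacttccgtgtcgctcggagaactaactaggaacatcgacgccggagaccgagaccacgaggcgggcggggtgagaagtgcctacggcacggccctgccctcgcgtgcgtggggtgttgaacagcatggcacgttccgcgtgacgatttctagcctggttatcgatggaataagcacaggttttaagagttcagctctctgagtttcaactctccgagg
Tfdp1, chr8:13338129-13338428, plus strand, upstream of the TSS: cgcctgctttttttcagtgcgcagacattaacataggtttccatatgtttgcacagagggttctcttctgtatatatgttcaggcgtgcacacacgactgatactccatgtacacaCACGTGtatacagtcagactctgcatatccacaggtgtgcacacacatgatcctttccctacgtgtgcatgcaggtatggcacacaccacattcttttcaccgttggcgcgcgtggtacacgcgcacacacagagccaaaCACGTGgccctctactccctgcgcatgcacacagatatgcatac

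Pcgf6 (ENSMUSG00000025050.6, chr19:47108109-47125380, minus strand, TSS at 47125380) is the subunit that both antibodies target. Within 2 kb of its TSS, the mean depth was 0.525 and 0.375 in the 2 Santa Cruz libraries, 0.675 and 0.675 in the 2 Abcam libraries and 6.05 in the input, which is the deepest library. After scaling by the depth sum of each library, the ratios to input were 0.864, 0.614, 0.921 and 0.892 in the 4 libraries, all below 1. In distinct fragments, 7 Santa Cruz and 10 Abcam fragments stood against 77 of the input, a ratio of 0.79 with Santa Cruz (exact 95% interval 0.307 to 1.71) and of 0.916 with Abcam (0.422 to 1.78). Both intervals, which cover counting error only here and throughout, lie below 2, so an enrichment of 2-fold over this window was not seen, while a smaller one was not detectable at this depth. In the ranking of all 21587 promoters with input fragments, 39.0% had a lower Santa Cruz ratio and 47.4% a lower Abcam ratio than Pcgf6. The 300 bases printed above hold none of the 3 motifs searched, and neither does the sequence up to 1 kb on either side of the TSS.

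**Figure D1:**
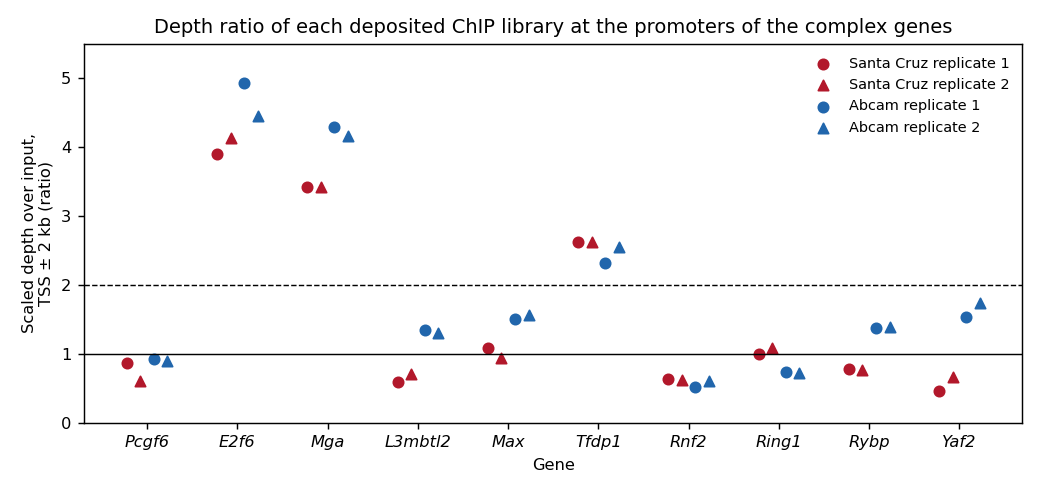
Depth within 2 kb of the TSS in each of the 4 deposited ChIP libraries, scaled by the library's depth sum and divided by the input (y axis, ratio), for the 10 genes (x axis). The solid line marks 1 and the dashed line 2. All 4 points of E2f6, Mga and Tfdp1 lie above 2 (lowest 2.32) and all 4 points of Pcgf6 lie below 1.

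E2f6 (ENSMUSG00000057469.6, chr12:16817771-16833549, plus strand) codes for an E2F family member without an activation domain, which acts as a repressor. Its promoter had a mean depth of 2.27 and 2.42 in the 2 Santa Cruz libraries, 3.46 and 3.24 in the 2 Abcam libraries and 5.8 in the input. The scaled ratios were 3.9, 4.14, 4.93 and 4.46. The joined libraries held 31 Santa Cruz, 48 Abcam and 74 input fragments, which gave 3.64 (Santa Cruz, 2.31 to 5.61) and 4.57 (Abcam, 3.11 to 6.66). Of all promoters, 98.1% and 99.1% had a lower ratio, and E2f6 ranked 408 with Santa Cruz and 193 with Abcam.

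The E2f6 fragments were gathered around the TSS. The densest 600 bp ran from 200 bp before to 400 bp after it, which covers exon 1 and its start codon, and held 19 Santa Cruz and 22 Abcam fragments against 23 of the input. The ratio there was 7.18 with Santa Cruz (3.7 to 13.8) and 6.74 with Abcam (3.58 to 12.7), a window chosen for its high count. Outside it, the rest of the promoter still stood at 2.05 and 3.59. The highest depth lay 266 bp after the TSS, within the coding part of exon 1, and 2 matches to the E2F core began 61 and 33 bp before this point. One more match began 53 bp before the TSS.

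Tfdp1 (ENSMUSG00000038482.9, chr8:13338751-13378395, plus strand) codes for DP1, the dimer partner through which E2F proteins bind DNA. Mean depths were 1.57 in each Santa Cruz library, 1.68 and 1.91 in the 2 Abcam libraries and 5.97 in the input. The scaled ratios were 2.63, 2.62, 2.32 and 2.55. There were 20 Santa Cruz, 27 Abcam and 78 input fragments, a ratio of 2.23 (Santa Cruz, 1.29 to 3.68) and 2.44 (Abcam, 1.51 to 3.82). These ratios were lower than those of E2f6, but each interval overlapped that of E2f6 with the same antibody. Both intervals include 2, so Tfdp1 is above input but its place relative to the 2-fold limit is uncertain. It ranked 1118 with Santa Cruz and 827 with Abcam.

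In Tfdp1 the densest stretch lay upstream of the TSS. Its 600 bp ran from 750 to 150 bp before the TSS, with 7 Santa Cruz and 13 Abcam fragments against 12 of the input, and ratios of 5.07 (1.69 to 14) and 7.64 (3.21 to 18.3). The highest depth was 473 bp before the TSS. In the 300 bases around it, printed above, 2 E-boxes began 33 bp before and 107 bp after the point of highest depth, and there was no E2F core. The 7 E2F cores of this promoter all lay closer to the TSS, from 160 bp before to 264 bp after it. The core that begins 160 bp before the TSS lies just inside the densest 600 bp.

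Mga (ENSMUSG00000033943.9, chr2:119722964-119795317, plus strand) codes for the large protein that carries both a T-box and a helix-loop-helix domain. At its promoter, mean depth was 2.32 and 2.33 in the 2 Santa Cruz libraries, 3.51 and 3.5 in the 2 Abcam libraries and 6.75 in the input. The scaled ratios were 3.43, 3.42, 4.3 and 4.16. There were 33 Santa Cruz, 54 Abcam and 85 input fragments, a ratio of 3.37 (2.19 to 5.1) and of 4.48 (3.12 to 6.37). Mga ranked 476 with Santa Cruz and 200 with Abcam, close to E2f6.

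Mga had the highest ratio of the 3 genes in its densest window, but its interval overlapped those of E2f6 and Tfdp1 with each antibody. Its densest 600 bp ran from 50 to 650 bp after the TSS, across the end of the untranslated exon 1 and the start of intron 1, and held 19 Santa Cruz and 26 Abcam fragments against 15 of the input. The ratio was 11.0 with Santa Cruz (5.3 to 23.3) and 12.2 with Abcam (6.24 to 24.8), again in a window chosen for its high count. This window held 57.6% of the Santa Cruz and 48.1% of the Abcam promoter fragments but 17.6% of the input fragments. The 300 bases of intron 1 around the highest depth, 394 bp after the TSS, hold none of the 3 motifs as written, and neither does the sequence within 1 kb of the TSS. Choosing a window by its count lifts low counts too. In the 7 genes under 2-fold, such windows ran from 0.497 (Pcgf6) to 3.48 (L3mbtl2) with Santa Cruz. With Abcam they ran from 0.742 (Rnf2) to 8.46 (L3mbtl2, 2.15 to 35.0). The L3mbtl2 window held 2 Santa Cruz and 6 Abcam fragments against 5 of the input.

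**Figure D2:**
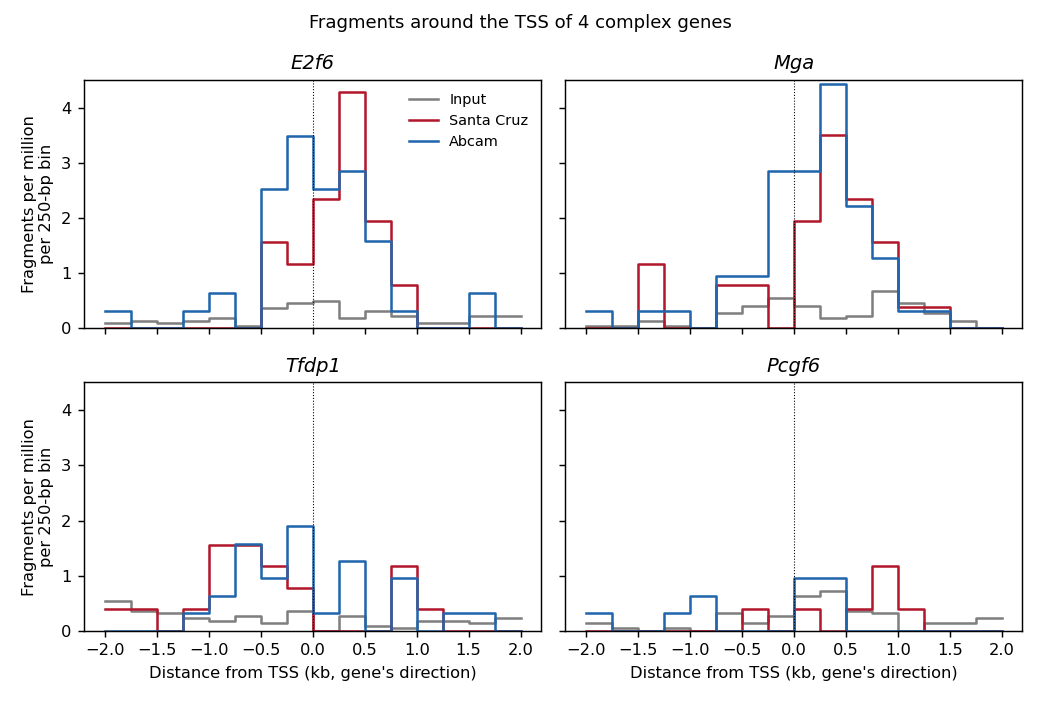
Distinct fragments in 250-bp bins, scaled to the library total as the axis states (y axis), against distance from the TSS in the direction of the gene (x axis, kb) for E2f6, Mga, Tfdp1 and Pcgf6, with the input in grey, Santa Cruz in red and Abcam in blue. Both antibodies rise above the input close to the TSS of E2f6 and just after that of Mga, rise less and upstream at Tfdp1, and at Pcgf6 no bin of either antibody holds more than 3 fragments.

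Max (ENSMUSG00000059436.5, chr12:78038256-78063235, minus strand), the helix-loop-helix partner of Mga and of the Myc and Mxd proteins, was not enriched at the 2-fold limit. Its scaled ratios were 1.08, 0.945, 1.51 and 1.57, the Abcam libraries above the Santa Cruz ones. It had 9 Santa Cruz, 15 Abcam and 71 input fragments, a ratio of 1.1 (0.484 to 2.21) and of 1.49 (0.792 to 2.62), and these intervals leave a 2-fold enrichment undecided. The Max promoter has an E-box that begins 3 bp before its TSS and a second one 278 bp before it, so the letters occur there without a ratio of 2-fold.

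L3mbtl2 (ENSMUSG00000022394.8, chr15:81494319-81518745, plus strand) gave scaled ratios of 0.586 and 0.715 with Santa Cruz and of 1.34 and 1.3 with Abcam. The 5 Santa Cruz, 14 Abcam and 67 input fragments gave 0.649 (0.204 to 1.59) and 1.47 (0.765 to 2.65). The 2 antibodies fell on either side of 1, and neither interval excludes 1.

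The E3 ligase genes stood at or below the input level with both antibodies. Rnf2 (ENSMUSG00000026484.7, chr1:153316536-153347953, minus strand) had 5 Santa Cruz, 6 Abcam and 76 input fragments, a ratio of 0.572 (0.181 to 1.39) and of 0.557 (0.198 to 1.27). Ring1 (ENSMUSG00000024325.8, chr17:34157737-34161625, minus strand) had 12, 11 and 103 fragments, a ratio of 1.01 (0.507 to 1.85) and of 0.753 (0.364 to 1.4). All 4 upper bounds lie below 2.

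Rybp (ENSMUSG00000072872.2, chr6:100178560-100237435, minus strand) had 10 Santa Cruz, 22 Abcam and 123 input fragments at its promoter, a ratio of 0.707 (0.331 to 1.34) and of 1.26 (0.762 to 2.0). Yaf2 (ENSMUSG00000022634.9, chr15:93114709-93167366, minus strand) had 4, 14 and 62, a ratio of 0.561 (0.148 to 1.51) and of 1.59 (0.823 to 2.88). In these related genes, as in L3mbtl2, the Abcam value was above 1 and the Santa Cruz value below it.

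Over the list, 3 of 10 promoters reached 2-fold with Santa Cruz and 3 with Abcam, and the same 3 did so with both. Among all promoters, 7.05% reached 2-fold with Santa Cruz, 6.73% with Abcam and 2.81% (607) with both. An exact binomial test (one-sided, Benjamini-Hochberg adjusted over the 22359 promoters) was run on the whole set with a threshold of 0.05. It put 0.631% of promoters past the threshold for Santa Cruz, 1.12% for Abcam and 0.479% with both. Since the list was chosen with this contrast in view, no test result is given for its members and nothing is read from these shares. The 10 promoters had a median ratio of 0.902 (Santa Cruz) and 1.48 (Abcam), and all promoters had 0.899 and 0.94. The 7 promoters outside the 3 summed to 0.781 with Santa Cruz (0.576 to 1.04) and 1.12 with Abcam (0.889 to 1.4).

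**Figure D3:**
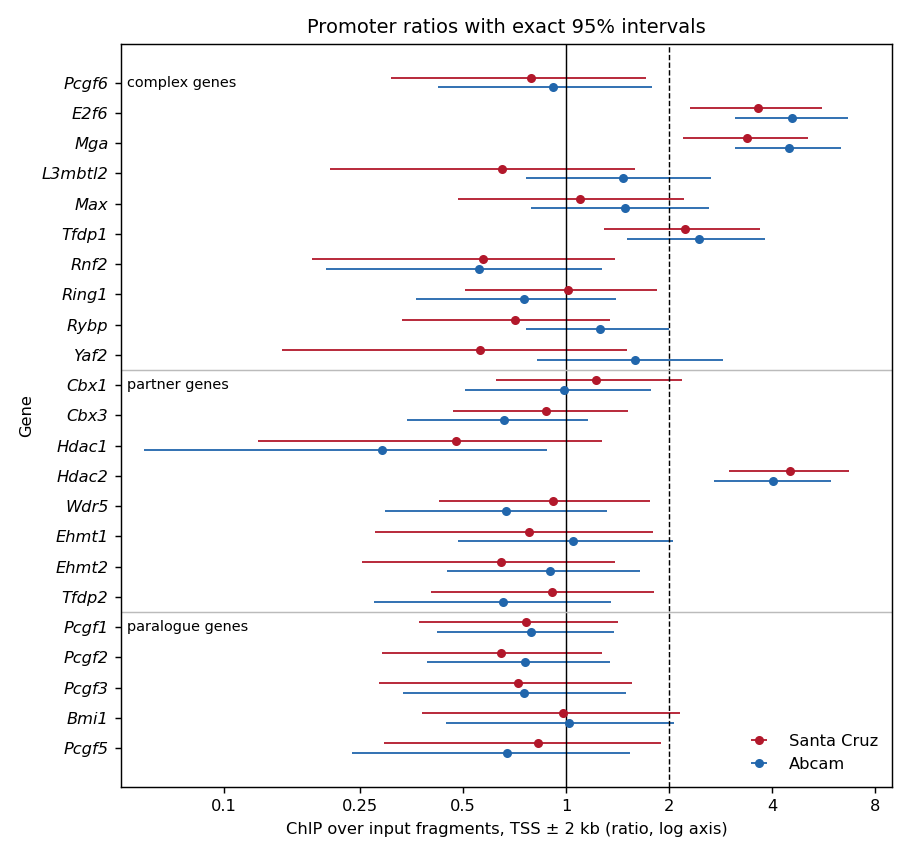
Ratio of ChIP to input fragments within 2 kb of the TSS (x axis, log scale) for the 10 complex genes, 8 partner genes and 5 paralogue genes (y axis), Santa Cruz in red and Abcam in blue. Bars are exact 95% intervals of the counts. E2f6, Mga and Hdac2 have both intervals above 2, those of Tfdp1 include 2, and the other genes have ratios of at most 1.59.

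The split of the ChIP fragments between the antibodies is another contrast than ChIP against input, and a two-sided exact binomial test was run on it over all promoters. It draws on the same promoter counts, which were known when the genes were chosen. Its p-values therefore describe the members and are not an independent test. No member differed between the antibodies after adjustment over the 22359 promoters (exact binomial, all adjusted p = 1), where 0.00894% of promoters (2) did, and none had an unadjusted p under 0.05, where 3.53% of promoters did. The unadjusted count depends on the setting, since the smallest exact binomial p among the members was 0.0162 (L3mbtl2) with 1 kb, 0.0194 (Rnf2) with 10 kb and, for Yaf2, 0.0484 with 0.5 kb, 0.0347 without Abcam replicate 1 and 0.0493 without Santa Cruz replicate 2. No member passed the adjusted threshold under any of these. The test compares 2 libraries and not separate cultures. E2f6 stood at an Abcam to Santa Cruz ratio of 1.26 (0.783 to 2.04), Mga at 1.33 (0.845 to 2.11) and Tfdp1 at 1.09 (0.592 to 2.06), which bounds any difference at these 3 promoters to about the upper limits given. The smallest p at 2 kb was that of Yaf2, with 14 Abcam and 4 Santa Cruz fragments, a ratio of 2.84 (0.891 to 11.8, exact binomial p = 0.0602, adjusted p = 1). The Abcam ratio was the higher one in 8 of 10 genes, with Ring1 (0.743) and Rnf2 (0.973) as the exceptions.

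The DNA outside the promoter windows was not used to choose the genes. Only L3mbtl2 has an annotated protein-coding start more than 4 kb from its main TSS, 11633 bp into the gene, with a ratio of 1.0 (Santa Cruz, 0.352 to 2.33) and 0.949 (Abcam, 0.364 to 2.1). It did not pass the exact binomial test with either antibody (adjusted p = 1), as few such starts did (0.14% for Santa Cruz and 0.28% for Abcam, of 7862). In gene bodies, taken from 2 kb after the TSS to the gene end, the E2f6 ratio was 0.86 (Santa Cruz, 0.507 to 1.38) and 1.06 (Abcam, 0.694 to 1.58). In Tfdp1 it was 0.672 (0.507 to 0.877) and 0.721 (0.563 to 0.911). In these 2 genes the body ratios thus lay below those of the promoter, which exceeded 2. The Mga body, 70353 bp long, stood at 1.34 (1.04 to 1.71) and 1.31 (1.04 to 1.64), above 1 with both antibodies but not past the adjusted threshold (exact binomial, adjusted p = 0.263 and 0.21). Its density was 7.09 input, 1.09 Santa Cruz and 1.32 Abcam fragments per kb. Each value lay below the median over gene bodies, which was 13.4, 1.37 and 1.7.

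One gene body of the 10 passed the test. In Rybp, 128 Santa Cruz fragments lay against 676 of the input over 56875 bp, a ratio of 1.65 (1.35 to 1.99, one-sided exact binomial, adjusted p = 0.000111 over 18133 gene bodies), where 2.11% of all gene bodies passed. With Abcam, 123 fragments gave 1.28 (1.05 to 1.56, exact binomial, adjusted p = 0.168), where 2.67% passed. The difference between the antibodies was itself not past the threshold (Santa Cruz to Abcam 1.28, 0.994 to 1.66, two-sided exact binomial p = 0.0492, adjusted p = 1). The Rybp body had 2.25 Santa Cruz fragments per kb against a median of 1.37 over gene bodies, while its input density of 11.9 per kb was close to the median of 13.4. In the 50 kb on either side of the gene, the ratio was 0.815 (Santa Cruz, 0.715 to 0.926) and 0.786 (Abcam, 0.696 to 0.884), and chromosome 6 as a whole stood at 1.02 and 1.01. The flanks of Rybp held 259 Santa Cruz, 308 Abcam and 2763 input fragments. Per kb, both antibodies and the input thus had more fragments in the flanks than in the body. Against its flanks, the body thus had a lower input density and not more ChIP fragments per kb. Against other gene bodies, its Santa Cruz density lay above 91.0% of them, its Abcam density above 74.4% and its input density above 42.4%. The cause of the higher body ratio was not tested. The promoter of the same gene was not enriched with either antibody.

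**Figure D4:**
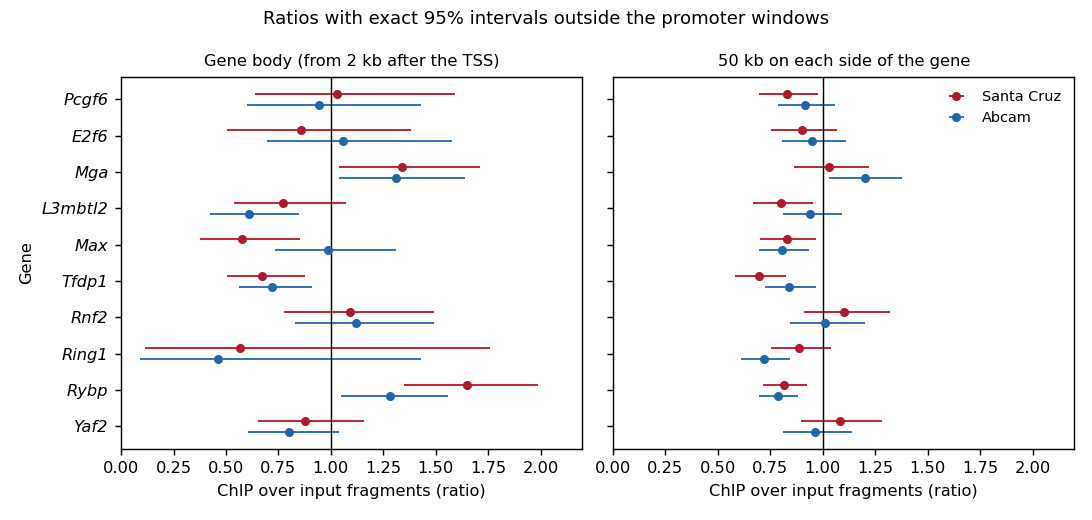
Ratio of ChIP to input fragments (x axis) in the gene body (left) and in 50 kb on each side of the gene (right) for the 10 genes (y axis), Santa Cruz in red and Abcam in blue, with exact 95% intervals. Rybp has the highest body ratio with Santa Cruz, 1.65, and flanks below 1, and the bodies of E2f6 and Tfdp1 lie near or below 1.

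Sequence was compared over 0.5 kb on each side of the TSS, on both strands, as a description of letters and not of bound factors. The E2F core TCCCGC occurred in 7 of the 10 genes, where 47.5% of all promoters hold it, and the E-box CACGTG in 6, where 16.8% do. Both occurred together in 5, against 9.82% of all promoters, namely E2f6, Tfdp1, Max, L3mbtl2 and Rybp. The T-box core GGTGTGA occurred in 0 of the 10, where 11.6% of promoters hold it. Of the 3 promoters that reached 2-fold, Tfdp1 had 7 E2F cores and 2 E-boxes, E2f6 had 3 and 1, and Mga had none of either. Rnf2 had 3 E2F cores and Rybp had 4 with an E-box, and neither promoter reached 2-fold. The GC content ran from 56.1% in L3mbtl2 to 80.2% in Rybp, against a median of 54.8% over all promoters, and the 3 enriched promoters spread over this range (Mga 57.3%, E2f6 62.9%, Tfdp1 73.8%). The motif shares over all promoters are thus not matched to the members for GC content.

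**Figure D5:**
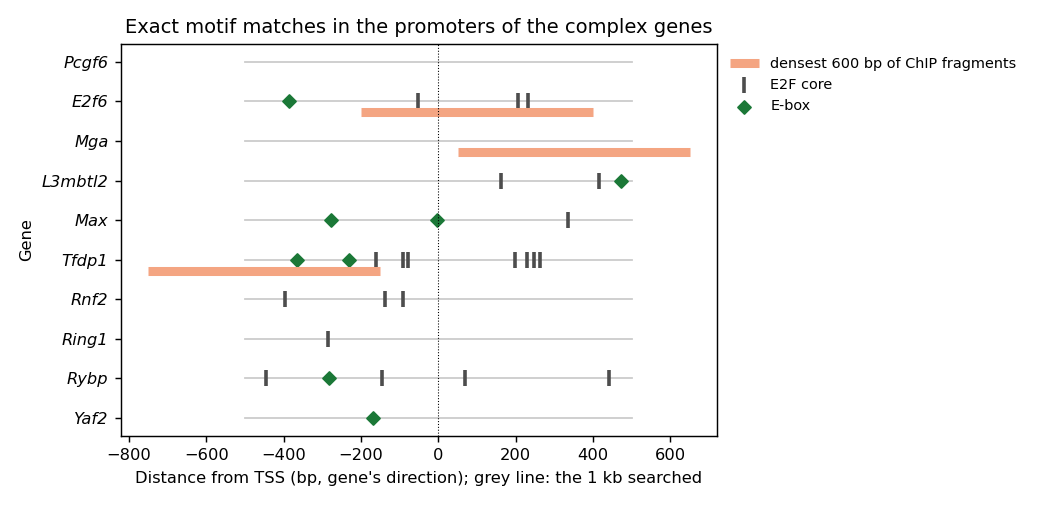
Positions of exact E2F core (bars) and E-box (diamonds) matches within 0.5 kb of the TSS (x axis, bp in the direction of the gene) in the 10 genes (y axis), with the densest 600 bp of ChIP fragments of E2f6, Mga and Tfdp1 in orange. All 3 E2F cores of E2f6 fall in its densest window. Both E-boxes of Tfdp1 fall in its own, as does its E2F core 160 bp before the TSS, and Mga has no match.

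Proteins that are found with the complex but belong to other complexes too gave a second list of 8 genes. This list was also chosen with earlier results of these data known. Its p-values, adjusted over all promoters, therefore describe the genes and are not an independent test. Of the 8 genes, 1 was past the threshold, with both antibodies: Hdac2, which codes for a class I histone deacetylase. Of all promoters, 0.631% passed with Santa Cruz, 1.12% with Abcam and 0.479% with both. It had 39 Santa Cruz, 43 Abcam and 75 input fragments, a ratio of 4.52 (2.99 to 6.74, one-sided exact binomial, adjusted p = 6.85e-09) and of 4.04 (2.71 to 5.96, adjusted p = 1.12e-08). The size was like that of E2f6 and Mga. Its close relative Hdac1 had the lowest ratio of the list, 0.476 (Santa Cruz, 0.126 to 1.27) and 0.29 (Abcam, 0.0584 to 0.881). Cbx1, Cbx3, Wdr5, Ehmt1, Ehmt2 and Tfdp2 did not pass, and the median of the list was 0.893 and 0.784. Tfdp2, the paralogue of Tfdp1, named here after its values were seen, stood at 0.91 (0.402 to 1.81) and 0.656 (0.274 to 1.35). The 300 bases around the highest depth at Hdac2, 490 bp before its TSS, are shown because they hold 2 E-boxes, which begin 14 and 110 bp after that point, and no E2F core, as in Tfdp1.
Hdac2, chr10:36693711-36694010, plus strand, upstream of the TSS: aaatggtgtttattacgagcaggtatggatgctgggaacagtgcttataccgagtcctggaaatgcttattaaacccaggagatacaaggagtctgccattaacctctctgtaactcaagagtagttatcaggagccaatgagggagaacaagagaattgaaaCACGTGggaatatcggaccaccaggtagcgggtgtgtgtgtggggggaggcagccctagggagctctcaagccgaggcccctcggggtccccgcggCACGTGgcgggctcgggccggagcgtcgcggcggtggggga

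An E-box occurs in 7.17% of the 300-base windows centred on a TSS, a share that is not matched to windows placed at the highest ChIP depth. The 300 bases around the highest depth at Rybp, which did not reach 2-fold, also hold an E-box. Those at E2f6 and Mga hold none. The genes for the 5 other Pcgf proteins, each of which sets another PRC1 subtype, were likewise listed with earlier results known and did not pass. The Santa Cruz ratios ran from 0.647 (Pcgf2) to 0.981 (Bmi1) and the Abcam ratios from 0.671 (Pcgf5) to 1.02 (Bmi1), and 0 of 5 passed the exact binomial test with either antibody (0.631% and 1.12% of all promoters did), with no unadjusted p under 0.05 among them. Pcgf1 and Pcgf3 lay within these ranges.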

How the data were processed

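Pcgf6 ChIP-seq of CCE ESCs was analysed from 5 libraries. The authors deposited 1 coverage signal per library on mm9, unscaled, with reads lengthened to 300 bp. The submitters' processing notes name Bowtie 0.1.2.7, and read filters are not given in the sources used here. Coverage keeps no strand, so fragment positions were recovered from its steps (at most 0.0289% of falls had no rise), placed by their middle, and kept once per position and antibody. Promoters were TSS ± 2 kb of the start shared by most protein-coding transcripts of GENCODE on NCBIM37. Ratios to input were scaled by fragment totals. Exact binomial tests were adjusted after Benjamini and Hochberg over all regions of a kind, threshold 0.05. They compare libraries, not cultures. Intervals are Clopper-Pearson and cover counting error only. The members and lists were chosen with earlier results of these data known. All members, partner genes called or at the ends of the range with Tfdp2, and all paralogues are named. Fragment recovery and the binomial tests at promoters were tested on simulated data. Alternatives were windows of 0.5, 1, 5 and 10 kb, another scaling, all fragments, deposited depth, each replicate left out, the most upstream TSS, fold limits of 1.5 and 3, and minimum counts. The software was Python 3.11.15 with scipy 1.17.1, numpy 2.4.6, matplotlib 3.10.9 and pandas 2.3.3.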

Additional observations from a re-analysis of the deposited data

How the results depend on the processing

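The count of members at the fold limit was 3 with each antibody and with both, except as follows. It was 4 with Abcam at 0.5 kb and at a limit of 1.5 (Yaf2 as well), and 2 with each antibody and with both at 5 kb and at a limit of 3 (Tfdp1 lost). With 10 kb on each side of the TSS it fell to 1 with Santa Cruz, 1 with Abcam and 1 with both (Mga), and there the Tfdp1 ratio with Santa Cruz turned to 0.92. The summed ratio of the members was 1.74 and 2.71 (Santa Cruz and Abcam) with 0.5 kb, 1.86 and 2.46 with 1 kb, 1.38 with Abcam at 5 kb, and 1.12 and 1.11 with 10 kb, since wider windows add DNA away from the TSS. Promoters at the fold limit with both antibodies numbered 915 with 0.5 kb, 389 with 5 kb, 288 with 10 kb, 247 where the input had 20 or more fragments, 1386 at a limit of 1.5 and 212 at a limit of 3. With every deposited fragment counted, shared fragments enter as separate ones, and 384 (Santa Cruz) and 624 (Abcam) promoters passed instead of 141 and 250. Promoters that differed between the antibodies numbered 0 with 0.5 kb and 1 with 1 kb, and the cause was not tested. Within 0.25 kb, members with an E-box numbered 3 (10.3% of all promoters). Members with both an E2F core and an E-box numbered 1 there (4.83% of all promoters). Leaving out a replicate, an alternative added for gene bodies after the data were seen, kept Rybp past the threshold with Santa Cruz (ratios of 1.65 to 1.71) and short of it with Abcam (1.22 to 1.38). The replicates share most of their fragments, so leaving out a replicate could change little, and nothing is concluded from it. Depth limits what a single promoter can show: 7 members have at most 22 ChIP fragments per antibody. No paired analysis was possible because the replicates of an antibody hold largely the same fragments and count as 1 sample.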
